A study of Mus musculus with 17 samples.

Results

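Plasma cell-free RNA (cfRNA) from 6 mice kept in microgravity (MG) on the International Space Station (ISS) was set against that of 11 mice at 1 G, in 17 libraries in all with 1 library per mouse. Of the 1-G mice, 6 flew on the same mission under artificial 1-G on a rotating platform (AG) and 5 stayed on the ground as controls (GC). All were wild-type C57BL/6J mice aged 13 weeks, so AG shared the flight with MG and the gravity level with GC. The MG libraries were compared with the mean of the AG and GC groups, and then with AG and with GC one by one, to find genes that differed from both 1-G groups in the same direction. The animals of each condition came from 1 mission, so gravity, cage and handling on that mission cannot be told apart within a condition. RNA was taken from 50 μl of plasma and sequenced with a small RNA kit, which captures short RNAs and short pieces of longer ones. In whole plasma, fewer cells of a type releasing RNA and less RNA released per cell cannot be told apart.

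The deposited counts were low, summing to 113746 to 223189 reads per MG library, 115515 to 277682 per AG library and 84657 to 195103 per GC library. The genes Tmem38b, Polr2m, Lars2 and Rn18s-rs5 together held 70.6 to 83.5% (median 76.5%) of the counts in MG, 86.9 to 91.7% (median 90.1%) in AG and 76.9 to 83.1% (median 79.9%) in GC. Levels are given here as counts per 1000000 counts after TMM scaling (CPM), which sets libraries on a common scale over the 272 genes kept by the filter on low counts. The TMM factors were 0.577 to 1.92 (median 1.47) in MG and 0.482 to 0.907 (median 0.614) in AG. In GC they were 0.525 to 1.74 (median 1.38). MG replicate 6 and GC replicate 4 had the lowest factors of their groups, which raises their CPM values. Differences in CPM between groups and libraries therefore rest in part on this scaling. Markers of red cells and platelets were found in every library, with 420 to 2568 red cell reads and 424 to 1588 platelet reads in the MG libraries. Leukocyte markers reached only 20 to 60 reads in the MG libraries, 19 to 34 in AG and 22 to 64 in GC. Among the MG libraries replicate 6 stood apart, with the highest Gas5 and Alb levels of all 17 libraries and the lowest Hbb-bt level. In AG replicate 6 held the highest Alb, Col1a2 and Gpx3 levels of its group, and GC replicate 4 the highest Gas5 and mt-Nd1 levels of GC. For genes of the count column, calls against the mean that ended without one of these libraries are named beside the gene.

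Cell-free RNA in plasma is released by blood cells and by organs, in vesicles, in complexes with protein or after cell death, and is partly degraded. The mitochondrial genome codes for 13 proteins, all of them subunits of the respiratory chain complexes I, III and IV and of ATP synthase. The RNAs counted for these 13 genes are called mitochondrial mRNAs here, also where genes overlap, as mt-Nd4l and mt-Nd4 do. These RNAs enter plasma inside or outside mitochondria. Red cells lose their nucleus before they reach the blood, and young red cells (reticulocytes) still carry globin mRNA and a small set of other transcripts while ubiquitin enzymes clear their ribosomes and organelles.

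Sequences are shown for mt-Nd4l and Hbb-bt, which are among the genes called against both 1-G groups, beside the gene that overlaps or resembles each, because a short fragment of these cannot always be assigned to 1 gene. The annotated gene mt-Nd4l overlaps mt-Nd4 by 7 bases on chrM:10167-10173 (GRCm38, plus strand), in capitals below. The last 60 bases of mt-Nd4l, at chrM:10114-10173, and the first 60 of mt-Nd4, at chrM:10167-10226, are the following.
mt-Nd4l: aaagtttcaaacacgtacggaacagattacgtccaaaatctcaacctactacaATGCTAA
mt-Nd4: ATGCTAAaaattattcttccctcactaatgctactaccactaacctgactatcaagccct
Of the 262 windows of 36 bases in mt-Nd4l, 98.9% also occur in the annotated transcript of another gene, all of them in Gm10222, which had a count of 0 in every library. For mt-Nd1 the same share was 0% of 922 windows. The beta globin genes Hbb-bt and Hbb-bs have coding sequences of 441 bases that differ at 1 base, T417C, where the base of Hbb-bt comes first and positions count from the first coding base. The 60 coding bases before the stop codon of Hbb-bt, at chr7:103812659-103812718 on the minus strand, and of Hbb-bs, at chr7:103826668-103826727 on the minus strand, show that base in capitals.
Hbb-bt: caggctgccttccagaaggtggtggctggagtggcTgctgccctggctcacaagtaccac
Hbb-bs: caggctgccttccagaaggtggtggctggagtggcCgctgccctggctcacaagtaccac
Of the Hbb-bt windows, 59.1% also occur in Hbb-bs, so only reads from the rest of the transcript separate these genes. How the authors' tool assigned reads with several matches is not given in the sources used here.

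Of the 272 genes tested, 19 differed between MG and the mean of AG and GC at an unadjusted p under 0.05 and a fold over 1.5 (6.99% of the genes tested, edgeR's quasi-likelihood test). Genes that met this criterion are named as called, and they comprised 7 genes higher in MG (2.57%) and 12 lower in MG (4.41%). None of the 272 passed after Benjamini-Hochberg adjustment, where the smallest adjusted p of the quasi-likelihood test was 0.465. At an unadjusted p under 0.05 alone the quasi-likelihood test found 19 genes, DESeq2 24 and limma 7, and neither of the others had a gene at an adjusted p under 0.05. If no gene differed, 13.6 of the 272 would be expected at an unadjusted p under 0.05. Higher in MG were the mitochondrial mRNAs mt-Nd1, mt-Nd4l and mt-Cytb, and Alb, Gpx3, Col1a2 and Gas5. Lower in MG were Hbb-bt, Slc4a1, Slc25a37, Ube2o, Mkrn1, Rnf10, Dcaf12, Polr2m, Ppp1cb, Grn, Pabpc1 and Gm20186.

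All 19 genes had the same sign against AG and against GC, which their selection on the mean of these groups favours. In the comparison with AG 36 genes were called (13.2%), 13 higher (4.78%) and 23 lower (8.46%), and in that with GC 12 (4.41%), 10 higher (3.68%) and 2 lower (0.735%). Between the 1-G groups 32 genes were called (11.8%), 17 higher in AG (6.25%) and 15 lower (5.51%). Of the 19 genes, 16 also passed against AG, 6 also passed against GC and 6 also passed between AG and GC. Only 3 of the 272 genes (1.1%) passed against both 1-G groups in the same direction, mt-Nd1 and mt-Nd4l higher (0.735%) and Hbb-bt lower (0.368%), and none had an adjusted p under 0.05 in either comparison. The comparisons with AG and with GC share the 6 MG libraries. Without MG replicate 6 no gene passed against both groups, and 16 were called against the mean, 13 of them among the 19. Among 11 other alternatives the call against both groups was kept in 6 for mt-Nd1, 6 for Hbb-bt and 5 for mt-Nd4l. Without TMM scaling, or with the share of the 4 most abundant genes as a covariate, mt-Nd1 was the single one of the 3 that kept it. Without AG replicate 6 the numbers were 5 genes against both groups and 18 against the mean, and without GC replicate 4 they were 4 and 30. No gene had all 6 MG libraries above, or all 6 below, the 11 1-G libraries (0%). Over all 272 genes the median log2 fold change was 0.11 against the mean, 0.17 against AG and -0.0034 against GC, and without TMM scaling it was 0.69 against the mean, 1.27 against AG and 0.10 against GC.

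Beside the fits that left out 1 library, the calls against the mean were recomputed under 12 other settings, 1 of them (MG replicate 6 and AG replicate 6 both left out) chosen after seeing the data, and 10 to 12 of these gave a value for each gene. Of the 19 genes, 4 were called with limma on log2(RPKM + 1), 6 with the share of the 4 most abundant genes as a covariate, 8 without TMM scaling, 8 with library sizes implied by RPKM, 9 with all genes of at least 5 reads and 12 with a replicate block. The covariate lay lower in every MG library than in every AG library, so that the covariate and the difference between these groups cannot be fully told apart. The call of mt-Nd1 was kept in 12 of 12 settings, those of mt-Nd4l, Hbb-bt and Gm20186 in 11 of 12, and that of Gpx3 in 10 of 12. Polr2m kept it in 9 of 11, Gas5 in 8 of 11, Ppp1cb and Col1a2 in 8 of 12, mt-Cytb and Grn in 7 of 12 and Alb in 7 of 10. The other genes called lower kept it in 3 (Slc4a1), 5 (Rnf10 and Pabpc1) or 6 (Ube2o, Mkrn1, Dcaf12 and Slc25a37) of 12.

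**Figure D1:**
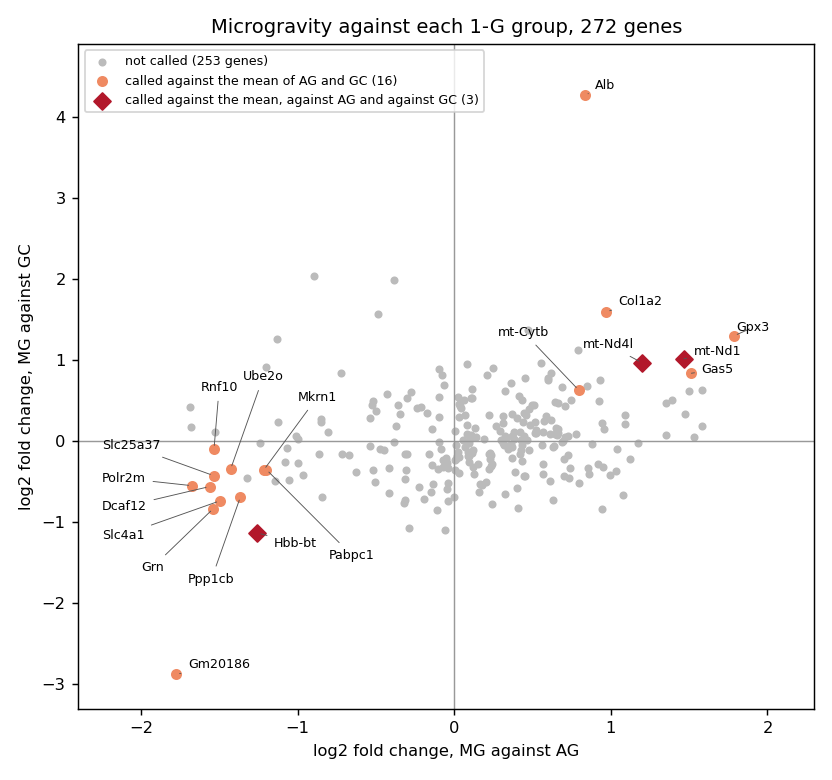
Log2 fold change of MG against AG (horizontal axis) and of MG against GC (vertical axis) for the 272 genes tested, 1 point per gene. Grey points are not called, orange points are the 16 genes called against the mean of AG and GC but not against both groups, and red diamonds are mt-Nd1, mt-Nd4l and Hbb-bt, called against AG and against GC. The 12 genes called lower lie in the lower left, most of them farther from 0 against AG than against GC.

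mt-Nd1, which encodes a core membrane subunit of complex I (chrM:2751-3707, plus strand), had the smallest p among the genes higher in MG. Its level was 105 to 586 CPM (median 208) in MG, 57.7 to 139.9 CPM (median 88.6) in AG, and 74.5, 85.3, 102, 113 and 251 CPM in GC, from 13 to 73 reads per MG library, 6 to 19 per AG library and 12 to 27 per GC library. MG replicate 6 was the highest library by far and GC replicate 4 lay above 5 of the 6 MG libraries, so that the groups overlapped with GC, while against AG only MG replicate 4 fell within the range of the 6 libraries. The log2 fold change was 1.24 ± 0.37 against the mean (SE, adjusted p = 0.465 in the quasi-likelihood test), 1.47 ± 0.44 against AG (called, adjusted p = 0.106) and 1.02 ± 0.45 against GC (called, adjusted p = 0.969). Without MG replicate 6 it was 0.81 (called) against the mean and 0.58 (not called) against GC. The call against the mean was kept without each of the 17 libraries in turn, and the call against GC was lost without GC replicate 1, 2, 3 or 5 or MG replicate 6.

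mt-Nd4l, another subunit of complex I (chrM:9877-10173, plus strand), had fewer reads, 12 to 27 per MG library, 2 to 9 per AG library and 7 to 15 per GC library. It measured 91.2 to 140.2 CPM (median 116) in MG, 18.1 to 141 CPM (median 36.8) in AG, and 45.9, 51.1, 55.6, 62.1 and 80.3 CPM in GC. Every MG library lay above every GC library and above 5 of the 6 AG libraries, and AG replicate 5, with 9 reads, lay just above the highest MG library. The log2 fold change was 1.08 ± 0.36 against the mean (SE, adjusted p = 0.465 in the quasi-likelihood test), 1.2 ± 0.44 against AG (called, adjusted p = 0.217) and 0.97 ± 0.44 against GC (called, adjusted p = 0.969). The call against the mean held without any 1 library, at 0.98 to 1.32, but not with the share of the 4 most abundant genes as a covariate, at 1.13, whereas the call against GC was lost without GC replicate 1, 2, 3 or 5 or MG replicate 1, 2 or 6, while its value stayed at 0.90 to 1.11 over the 17 fits.

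mt-Cytb encodes cytochrome b, the mitochondrially coded subunit of complex III (chrM:14145-15288, plus strand). It measured 243 to 569.7 CPM (median 451) in MG, 208 to 300.2 CPM (median 255) in AG, and 226, 250.5, 252, 317 and 361 CPM in GC. In MG 5 of 6 libraries lay above every 1-G library, and MG replicate 4 was within the 1-G range, while GC replicate 4 came just below the next MG library. The log2 fold change was 0.71 ± 0.28 against the mean (SE, adjusted p = 0.551, quasi-likelihood test) and 0.80 ± 0.33 against AG (called, adjusted p = 0.28), and against GC it was 0.63 ± 0.34 (not called, adjusted p = 0.994). Without MG replicate 1 the value against the mean was 0.64 (not called), the only library whose loss ended this call. Other settings ended it too, with 5 of 12 giving no call, among them the covariate, at 0.75, and limma.

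**Figure D2:**
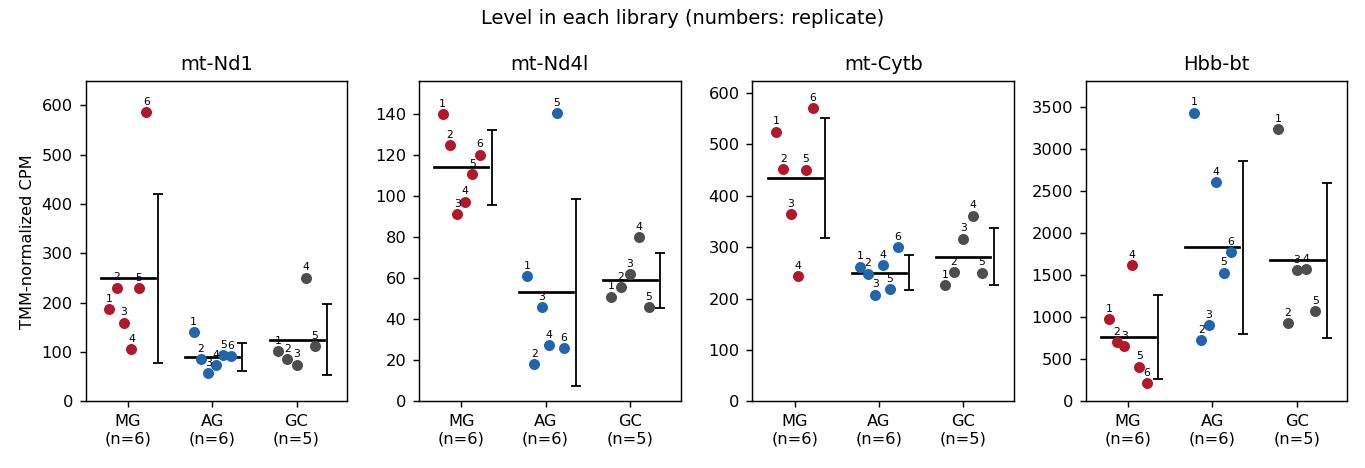
TMM-normalized CPM (vertical axis, linear, from 0) of mt-Nd1, mt-Nd4l, mt-Cytb and Hbb-bt in each library of the MG, AG and GC groups. Each point is a library with its replicate number, the line is the group mean and the bar is 1 SD. MG replicate 6 is the highest point for mt-Nd1 at 586 CPM and the lowest for Hbb-bt at 217 CPM, and AG replicate 5 stands with the MG libraries for mt-Nd4l.

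The other 10 mitochondrial mRNAs were not called against the mean. All 13 had a log2 fold change above 0 against the mean, against AG and against GC, where 61.0%, 64.7% and 50% of the 272 genes did. The median over the 13 was 0.55 against the mean, 0.66 against AG and 0.43 against GC, beside 0.11, 0.17 and -0.0034 over all genes tested. Of the 13, 3 were called higher against the mean (2.57% of all genes tested), 4 against AG (4.78%) and 2 against GC (3.68%). mt-Nd4, a further complex I subunit, had 276 to 810.2 CPM (median 509) in MG, 219 to 533 CPM (median 274) in AG, and 270.0, 301, 341, 351 and 547 CPM in GC and a log2 fold change of 0.63 ± 0.32 (SE, adjusted p = 0.699, quasi-likelihood test). mt-Co2, a subunit of cytochrome c oxidase, had 544 to 1195 CPM (median 869) in MG, 297 to 691 CPM (median 578) in AG, and 484, 602, 704, 722 and 759 CPM in GC and 0.57 ± 0.28 (SE, adjusted p = 0.687, quasi-likelihood test). For both the ranges of the 3 groups overlapped, with most MG libraries in the upper part. The remaining complex I mRNAs gave 0.55 (mt-Nd2), 0.41 (mt-Nd3), 0.47 (mt-Nd5) and 0.45 (mt-Nd6), those of cytochrome c oxidase 0.44 (mt-Co1) and 0.56 (mt-Co3), and the ATP synthase mRNAs 0.27 (mt-Atp6) and 0.27 (mt-Atp8). The median stayed above 0 against the mean and against AG in every alternative run, at 0.32 with the share of the 4 most abundant genes as a covariate and 1.18 without TMM scaling, where the median of all genes was 0.69. Against GC it ranged from 0.02 for limma on RPKM, where 7 of 13 were above 0, to 0.61 without TMM scaling. With that covariate mt-Nd3 and mt-Nd6 lay below 0 against the mean. Without MG replicate 6 the median was 0.44, with 12 of 13 above 0, and mt-Nd2 then lay at -0.0046.

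**Figure D3:**
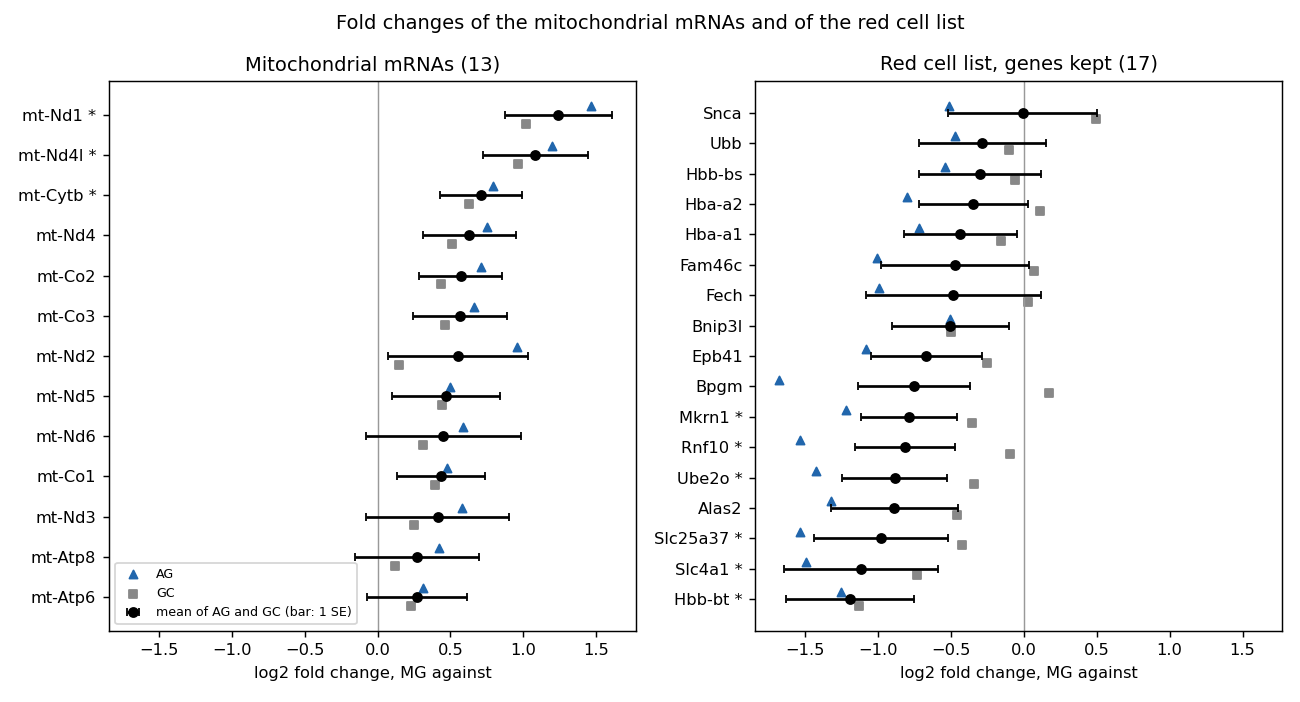
Log2 fold change of MG (horizontal axis) for the 13 mitochondrial mRNAs (left) and the 17 genes of the red cell list kept by the filter (right). Black points are against the mean of AG and GC with a bar of 1 SE, triangles against AG and squares against GC, and an asterisk marks a gene called against the mean. All mitochondrial values lie above 0 and all red cell values against the mean lie below 0, and the triangles of the red cell list lie farther from 0 than its squares.

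As a share of all counts, the 13 mitochondrial mRNAs took 0.266 to 1.21% (median 0.672%) in MG, 0.144 to 0.400% (median 0.182%) in AG, and 0.255, 0.468, 0.502, 0.503 and 0.578% in the GC libraries. The 3 MG libraries with the largest shares, replicates 1, 2 and 5, exceeded every 1-G library, and the other 3 lay within the 1-G range. On the log2 scale the mean share in MG exceeded the mean of AG and GC by 0.995 (exact two-sided permutation test, p = 0.031, adjusted p = 0.0465 over 6 comparisons). Against AG the difference was 1.55 (exact permutation p = 0.0108, adjusted p = 0.0325) and against GC 0.44 (exact permutation p = 0.331), which did not pass. The difference from the mean did not pass without MG replicate 1, 2 or 5 or GC replicate 4, at 0.79 to 0.89 (exact permutation p = 0.0677 to 0.0821). Over the counts outside the 4 most abundant genes the share was 1.16 to 5.02% (median 2.89%) in MG, 1.37 to 3.05% (median 2.13%) in AG and 1.51 to 2.52% (median 2.5%) in GC, and the log2 difference was 0.33 (exact permutation p = 0.229). Of the nuclear genes for the respiratory chain, 34 were in the table and none passed the filter, with 38 to 72 reads in all per MG library, 15 to 62 per AG library and 30 to 93 per GC library. As a share of the counts outside the 4 most abundant genes this list held 0.0984 to 0.262% in MG, 0.0586 to 0.240% in AG and 0.0943 to 0.230% in GC, and the ranges overlapped.

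Within the mitochondrial mRNA reads, a ratio that no scaling between libraries touches, mt-Nd1 made up 2.61 to 8.44% (median 4.17%) in MG, 2.32 to 2.93% (median 2.75%) in AG and 1.86, 2.61, 2.86, 3.2 and 5.03% in GC. MG replicate 1 lay inside the AG range and the other 5 MG libraries lay above all 6 AG libraries and above 4 of the 5 GC libraries. For mt-Nd4l the share was 1.73 to 3.86% (median 2.14%) in MG, 0.602 to 4.27% (median 1.02%) in AG and 1.3, 1.43, 1.55, 1.61 and 1.7% in GC, where every MG library exceeded every GC library. These ratios were chosen after their values were seen and are given without a test. Platelets also carry mitochondria, and the 20 platelet markers, all detected in each group, made up 0.970 to 5.27% of the counts outside the 4 most abundant genes in MG, 0.403 to 5.97% in AG and 1.11 to 6.32% in GC. None of the 14 platelet genes kept by the filter was called against the mean (6.99% of all genes), where their median was 0.01, with 0.24 against AG and -0.24 against GC. The part of platelets in the mitochondrial values was not tested.

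Hbb-bt, an adult beta globin gene (chr7:103812524-103813996, minus strand), was the single gene called lower against both 1-G groups. It measured 217 to 1623 CPM (median 680.0) in MG, 727 to 3436 CPM (median 1654) in AG, and 934, 1073, 1565, 1575 and 3240.3 CPM in GC, from 27 to 200 reads per MG library. MG replicates 2, 3, 5 and 6 lay below every 1-G library, and MG replicates 1 and 4 fell within the 1-G range. The log2 fold change was -1.19 ± 0.44 against the mean (SE, adjusted p = 0.547, quasi-likelihood test), -1.26 ± 0.48 against AG (called, adjusted p = 0.244) and -1.13 ± 0.50 against GC (called, adjusted p = 0.969). Without GC replicate 1, the highest of its group, the value against GC was -0.72 (not called), and without MG replicate 6 it was -0.94 (not called). The call against the mean was kept without each library, whereas that against GC was lost without GC replicate 1 or MG replicate 2, 3, 5 or 6, and that against AG without AG replicate 1, at -0.98. Without TMM scaling the value against the mean was -0.59 and was not called.

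The nearly identical Hbb-bs gene was not called. Its level was 666 to 4763 CPM (median 1893) in MG, 1756 to 6399 CPM (median 2511) in AG, and 1114, 1352, 1739, 2074 and 4722 CPM in GC and its log2 fold change -0.30 ± 0.42 against the mean (SE, adjusted p = 0.979, quasi-likelihood test), and the groups overlapped over most of their ranges. Set within each library, the number of Hbb-bt reads per Hbb-bs read was 0.325 to 0.416 (median 0.356) in MG, 0.414 to 0.953 (median 0.512) in AG, and 0.537, 0.686, 0.754, 0.793 and 1.41 in the GC libraries. All 6 MG libraries lay below the 5 GC libraries, and MG replicate 1, the highest at 0.416, exceeded only AG replicate 2, the lowest at 0.414. The SD of this ratio was 0.0369 in MG against 0.214 in AG and 0.337 in GC. The ratio was chosen after its values were seen and is given without a test. Because the genes share 36-base windows, it counts reads as the authors' tool assigned them. The alpha globin genes gave -0.44 (Hba-a1) and -0.35 (Hba-a2) against the mean, neither of them called.

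**Figure D4:**
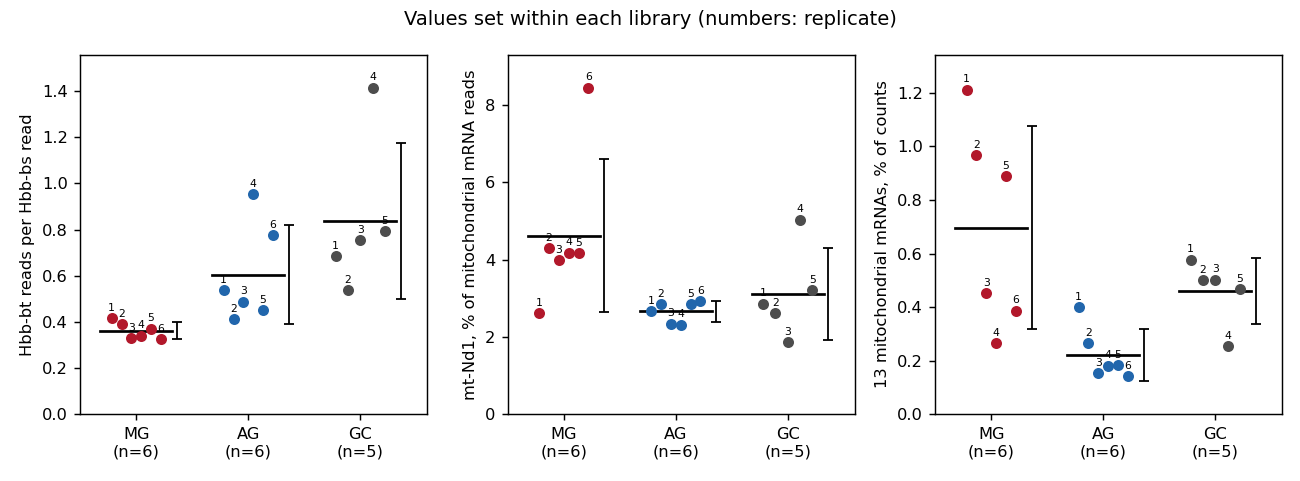
Values set within each library for MG, AG and GC, 1 point per library with its replicate number, with the group mean (line) and 1 SD (bar). Left, Hbb-bt reads per Hbb-bs read, at 0.325 to 0.416 in MG. Middle, mt-Nd1 as a percent of mitochondrial mRNA reads, where MG replicate 6 reaches 8.44%. Right, the 13 mitochondrial mRNAs as a percent of all counts, where MG spans the widest range.

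Of the 35 genes on the red cell list, 33 were in the table and 17 passed the filter, which can keep a gene through 1 group alone. Against the mean all 17 had a log2 fold change below 0, beside 106 of all 272 genes (39.0%), and 6 were called lower, Hbb-bt, Slc4a1, Slc25a37, Ube2o, Rnf10 and Mkrn1, beside 12 of the 272 (4.41%). The median was -0.67 against the mean, -1.08 against AG and -0.16 against GC, beside 0.11, 0.17 and -0.0034 over all genes. Against AG 9 of the 17 were called lower (8.46% of all genes) and against GC 1, Hbb-bt (0.735%), and 5 of the 17 lay above 0 against GC. Between AG and GC themselves all 17 had the higher value in AG, as did 36.4% of all genes, with a median log2 fold change of 0.87. Without TMM scaling the median against the mean was -0.07, with 8 of 17 above 0, beside 0.69 over all genes, and with the covariate it was -0.31 with 3 above 0. Summed over the list, these genes held 0.961 to 9.59% of the counts outside the 4 most abundant genes in MG, 6.28 to 16.1% in AG and 2.95 to 14% in GC, the lowest value being that of MG replicate 6. Without that library the median against the mean was -0.53, with 1 of 17 above 0, and against GC -0.09, with 8 above 0. Among the 33 genes, those without any read numbered 2 in MG, 2 in AG and 3 in GC.

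Slc4a1, which encodes the band 3 anion exchanger of the red cell membrane, measured 0 to 76 CPM (median 27.8) in MG, 63.2 to 131 CPM (median 95.1) in AG, and 24.8, 29.7, 54.3, 65.7 and 120.4 CPM in GC. Only MG replicate 3 reached the AG range, and MG and GC overlapped. This gave a log2 fold change of -1.11 ± 0.53 against the mean (SE, adjusted p = 0.658, quasi-likelihood test), a call lost without AG replicate 3, 5 or 6, GC replicate 1, 4 or 5 or MG replicate 1, 4, 5 or 6. The filter kept Slc4a1 in 14 of the 17 fits that left out a library, and it was called in 4 of them. Slc25a37 encodes mitoferrin, the iron importer of red cell mitochondria, and measured 12.3 to 98.8 CPM (median 46.5) in MG, 63.2 to 227 CPM (median 186) in AG, and 40.8, 51.1, 80.7, 83.5 and 100.3 CPM in GC. In MG 3 of 6 libraries lay below all 1-G libraries, and the other 3 were within their range. Its log2 fold change was -0.98 ± 0.46 (SE, adjusted p = 0.658, quasi-likelihood test), a call lost without AG replicate 1, 4 or 5, GC replicate 3, 4 or 5 or MG replicate 1, 2 or 5. With the share of the 4 most abundant genes as a covariate the value of Slc25a37 against the mean turned to 0.18, and that of Slc4a1 against AG to 0.018.

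The ubiquitin enzymes Ube2o, Rnf10 and Mkrn1, which belong to the red cell list too, were called lower. Ube2o, which tags ribosomal proteins for removal in reticulocytes, had 20.5 to 76.9 CPM (median 60.7) in MG, 81.3 to 281 CPM (median 142) in AG, and 45.9, 59.3, 74.5, 80.3 and 100.3 CPM in GC. All 6 MG libraries lay below all 6 AG libraries, and MG and GC overlapped. The estimated log2 fold change was -0.89 ± 0.36 against the mean (SE, adjusted p = 0.551, quasi-likelihood test), -1.43 ± 0.40 against AG and -0.34 ± 0.42 against GC, and without MG replicate 5 it was -0.70 (not called). Neither without TMM scaling nor with the share of the 4 most abundant genes as a covariate were Ube2o, Rnf10 and Mkrn1 called, and the values with the covariate were -0.31, -0.45 and -0.38. Rnf10, a ubiquitin ligase that acts on ribosomes, had 28.7 to 68.4 CPM (median 40.3) in MG, 92.3 to 157 CPM (median 120.3) in AG, and 25, 43.8, 44.5, 50.2 and 62.1 CPM in GC. All 6 MG libraries lay below all 6 AG libraries and overlapped GC, with -1.53 ± 0.38 against AG and -0.10 ± 0.40 against GC (SE). Its value against the mean was -0.82 ± 0.34 (SE, adjusted p = 0.551, quasi-likelihood test), a call lost without GC replicate 3 or MG replicate 2 or 5. Mkrn1, also a RING ubiquitin ligase, had 86.1 to 211 CPM (median 131) in MG, 185 to 431 CPM (median 319.9) in AG, and 131, 137, 186, 201 and 217 CPM in GC, where only MG replicate 4 reached the AG range and MG overlapped GC. Its value against the mean was -0.79 ± 0.33 (SE, adjusted p = 0.551, quasi-likelihood test), a call lost without MG replicate 2, 5 or 6. Of the 16 ubiquitin genes listed, 5 were kept, and these 3 were the ones called lower against the mean (4.41% of all genes), while Trim39, at -1.13 against AG and 1.27 against GC, was called in opposite directions.

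Dcaf12, a substrate receptor of a cullin ubiquitin ligase, was named after its values were seen. It had 8.02 to 89.3 CPM (median 28) in MG, 40.6 to 157 CPM (median 107) in AG, and 18.5, 37.6, 62.1, 65.7 and 70.2 CPM in GC and a log2 fold change of -1.06 ± 0.50 (SE, adjusted p = 0.658, quasi-likelihood test). The MG values overlapped both 1-G groups, and the call was lost without AG replicate 1, 4, 5 or 6, GC replicate 1, 3, 4 or 5 or MG replicate 1, 2, 5 or 6.

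Alb, which encodes serum albumin and marks liver, had the largest positive fold change of the 19 genes, and 1 library of each flight group stood far above the others. Its level was 0 to 2359 CPM (median 120.2) in MG, 0 to 1514 CPM (median 37.7) in AG, and 7.3, 22.2, 24.8, 30.1 and 33.4 CPM in GC. MG replicate 6 and AG replicate 6 were the highest, the other MG libraries spanned 0 to 211 CPM, and 4 of these 5 lay above all 5 GC libraries. The log2 fold change was 2.55 ± 1.02 against the mean (SE, adjusted p = 0.551, quasi-likelihood test), 0.83 ± 1.16 against AG (not called, adjusted p = 0.803) and 4.27 ± 1.46 against GC (called, adjusted p = 0.604). Without MG replicate 6 it was 0.29 (not called) against the mean, -1.42 (not called) against AG and 2.0 (not called) against GC, and without AG replicate 6 it was 4.25 (called) against the mean and 4.26 against AG. Of 19 liver genes in the table Alb was the 1 kept by the filter, and the whole list held 0.0299 to 1.45% of the counts outside the 4 most abundant genes in MG, 0.0347 to 1.8% in AG and 0.0660 to 0.108% in GC.

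Gpx3 encodes the glutathione peroxidase secreted into plasma. It had few reads, 2 to 43 per MG library and 0 to 8 per AG library, and measured 16 to 223 CPM (median 60.8) in MG, 0 to 104 CPM (median 12.4) in AG, and 4.17, 18.5, 30.1, 36.5 and 74.5 CPM in GC. MG replicate 1 was the highest library, AG replicate 6 the highest of its group, and the groups overlapped. The fitted log2 fold change was 1.54 ± 0.65 against the mean (SE, adjusted p = 0.551, quasi-likelihood test), 1.79 ± 0.82 against AG and 1.3 ± 0.79 against GC. It was kept by the filter in 13 of the 17 fits that left out a library, and called against the mean in all 13. The filter dropped Gpx3 in the rest, the fit without MG replicate 1 among them, so this count does not show whether the call needs that library. Gpx3 was not called with limma nor with the share of the 4 most abundant genes as a covariate, at 1.29. Against AG it was 2.96 without AG replicate 6. Without both MG replicate 6 and AG replicate 6 it was 2.35 (called) against the mean and 1.52 (called) against GC, so that it then passed against both groups.

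Col1a2, a chain of type I collagen, measured 33.6 to 617 CPM (median 90.2) in MG, 23.1 to 313 CPM (median 53.8) in AG, and 29.2, 44.5, 49.7, 80.3 and 90.3 CPM in GC. MG replicate 4 was the highest of all libraries and AG replicate 6 came next, while MG replicates 5 and 6 lay above the other 1-G libraries and the rest overlapped. This gave a log2 fold change of 1.28 ± 0.57 against the mean (SE, adjusted p = 0.636, quasi-likelihood test), and without MG replicate 4 it was 0.29 (not called) against the mean, -0.026 (not called) against AG and 0.61 (not called) against GC. The call was also lost without AG replicate 1 or 3 or GC replicate 2 or 5, at 1.17 to 1.23. Col1a1, the partner chain, gave 0.22 ± 0.53 (SE, adjusted p = 0.979, quasi-likelihood test), and 3 of the 12 collagen and bone matrix genes in the table were kept.

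**Figure D5:**
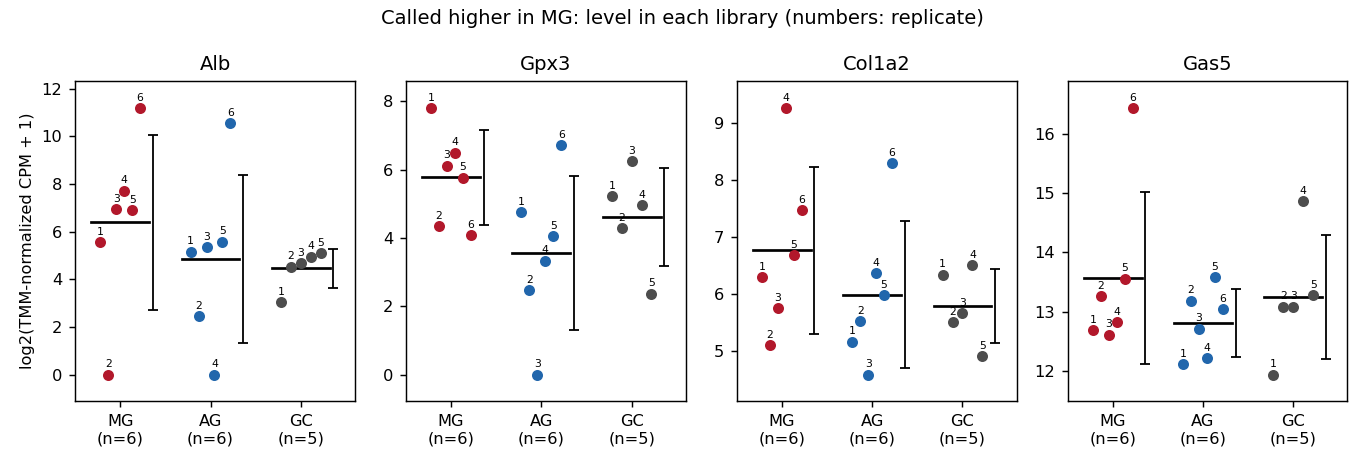
Log2(TMM-normalized CPM + 1) of Alb, Gpx3, Col1a2 and Gas5 in each library of MG, AG and GC, with the mean of these log values (line) and 1 SD (bar), the vertical axes not starting at 0 in every panel. Points carry replicate numbers. MG replicate 6 is the highest for Alb and Gas5, MG replicate 1 for Gpx3 and MG replicate 4 for Col1a2, and AG replicate 6 is second for Alb, Gpx3 and Col1a2.

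Gas5, a noncoding RNA whose introns hold small nucleolar RNAs (snoRNAs), had the most reads of the genes called higher, 823 to 11073 per MG library. Its level was 6254 to 88849 CPM (median 8536) in MG, 4423 to 12226 CPM (median 7554) in AG, and 3912, 8671, 8683, 9964 and 29706 CPM in GC. MG replicate 6 was above every other library, GC replicate 4 came next, and the other 5 MG libraries lay within the range of both 1-G groups. The log2 fold change was 1.18 ± 0.53 against the mean (SE, adjusted p = 0.636, quasi-likelihood test), 1.51 ± 0.63 against AG and 0.84 ± 0.65 against GC, and without MG replicate 6 it turned to -0.20 (not called) against the mean and was 0.14 (not called) against AG. The call was lost also without AG replicate 1 or 4 or GC replicate 1, 2 or 3, at 1.07 to 1.12. 1110038B12Rik, which holds Snord52, measured 276 to 4453 CPM (median 411) in MG, 209.9 to 609.7 CPM (median 318) in AG, and 255, 279, 452, 801 and 1776 CPM in GC, with 1.11 ± 0.55 against the mean (SE, adjusted p = 0.687, quasi-likelihood test), and was not called. MG replicate 6 was the single MG library above the 1-G range for it.

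Of the 272 genes, 49 hold a snoRNA gene on the same strand in GENCODE M21. Against the mean 37 of the 49 were above 0 with a median of 0.28, and 129 of the other 223 were above 0 with a median of 0.08. Against AG these medians were 0.66 and 0.09, and against GC -0.10 and 0.02, and the 49 genes had 1 gene called higher against the mean (2.57% of all genes) and none lower (4.41%). When MG replicate 6 was left out the order turned, with 14 of 48 above 0 and a median of -0.17 against the mean, beside 136 of 223 and 0.12 for the others, and the medians were 0.17 and 0.17 against AG and -0.57 and 0.074 against GC. This split was chosen after values were seen. On the shorter list of 11 snoRNA host genes, 8 were kept, all of them above 0 against the mean (median 0.43) and against AG (0.95), and 3 above 0 against GC (-0.16). Without MG replicate 6 their median against the mean was 0.040, with 5 of 8 above 0. Snhg1 gave 0.95 ± 0.60 against AG and -0.84 ± 0.62 against GC, and Snhg5 1.12 ± 0.49 and -0.22 ± 0.51 (SE).

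Polr2m, a gene for a protein bound to RNA polymerase II (chr9:71478437-71485935, minus strand), had the smallest p among the genes lower in MG and is among the 4 that held most counts. It had 4661 to 10572 reads per MG library, 11674 to 24103 per AG library and 8924 to 12922 per GC library. Whether reads counted for Polr2m come from its mRNA was not tested. It measured 34523 to 59443 CPM (median 47884) in MG, 62502 to 241197 CPM (median 137507) in AG, and 34257, 53941, 55426, 93904 and 106707 CPM in GC. All 6 MG libraries lay below all 6 AG libraries, and MG overlapped GC. Its log2 fold change was -1.11 ± 0.34 against the mean (SE, adjusted p = 0.465, quasi-likelihood test), -1.67 ± 0.38 against AG (called, adjusted p = 0.0582) and -0.55 ± 0.39 against GC (not called, adjusted p = 0.994). It was called against the mean without each library, but not without TMM scaling, at -0.43. The fit with the share of the 4 most abundant genes as a covariate is no check of Polr2m, since its own counts are part of that share. Between AG and GC it differed by 1.12 ± 0.40. The other 3 were not called against the mean, with -0.58 ± 0.41 for Tmem38b, -0.27 ± 0.27 for Lars2 and -0.51 ± 0.36 for Rn18s-rs5 (SE).

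As a share of all counts these 4 genes stood lower in every MG library than in every AG library and overlapped GC, at the values given above. On the scale of log2 odds MG differed from the mean of AG and GC by -0.81 (exact two-sided permutation test, p = 0.0214, adjusted p = 0.0428 over 6 comparisons). Against AG the difference was -1.39 (exact permutation p = 0.00216, the smallest that 6 against 6 libraries can give, adjusted p = 0.013). Against GC it was -0.22 (exact permutation p = 0.299), which did not pass. Without MG replicate 5 the difference from the mean was -0.71 (exact permutation p = 0.0512). With this share as a covariate in the quasi-likelihood fit, 19 genes were again called against the mean, of which 6 were among the 19 above.

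Ppp1cb, a catalytic subunit of protein phosphatase 1, measured 80.2 to 145 CPM (median 109) in MG, 117 to 463 CPM (median 271) in AG, and 120.4, 150.3, 174, 205 and 219 CPM in GC. The MG range reached the lowest AG library and the lowest GC library only. The estimated log2 fold change was -1.02 ± 0.34 against the mean (SE, adjusted p = 0.465, quasi-likelihood test), -1.36 ± 0.38 against AG and -0.68 ± 0.39 against GC, and it was called against the mean without each library in turn. Grn, which encodes progranulin, measured 22.8 to 76.9 CPM (median 42.5) in MG, 52.5 to 188 CPM (median 134) in AG, and 21.9, 48.2, 87, 100.2 and 150.5 CPM in GC and gave -1.18 ± 0.42 against the mean (SE, adjusted p = 0.529, quasi-likelihood test), again called without each library. Its MG range overlapped both 1-G ranges at their lower ends. Against GC, where Grn gave -0.83 ± 0.48 (SE), neither was called, and both lost the call against the mean without TMM scaling, at -0.41 and -0.47.

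Pabpc1, the cytoplasmic poly(A)-binding protein, had 177 to 502 CPM (median 281) in MG, 352 to 1109 CPM (median 839) in AG, and 256, 329.8, 366, 474 and 642 CPM in GC. In MG 4 of 6 libraries lay below all AG libraries and 3 of 6 below all GC libraries. The fitted log2 fold change was -0.77 ± 0.36 against the mean (SE, adjusted p = 0.658, quasi-likelihood test), a call lost without AG replicate 1, 4 or 6, GC replicate 1 or 4 or MG replicate 1, 2, 5 or 6. The lincRNA Gm20186 (chr6:18845910-18848207, minus strand) had the largest negative value, -2.33 ± 0.91 (SE, adjusted p = 0.551, quasi-likelihood test). It had no read in 3 MG libraries and 1 AG library, and measured 0 to 67.5 CPM (median 2.05) in MG, 0 to 175 CPM (median 33.3) in AG, and 16.7, 30.1, 104, 124 and 358 CPM in GC, so that the fitted value rests on few reads in MG. Against GC it gave -2.88 ± 0.98 (called, adjusted p = 0.604) and against AG -1.78 ± 1.01 (not called, adjusted p = 0.456), and it was called against the mean without each library in turn, at -3.92 without MG replicate 1, the MG library with the highest level, and not with limma.

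The remaining lists held 1 gene called against the mean. Of 27 ribosomal protein genes 15 were kept, with a median of 0.14 against the mean, 0.37 against AG and -0.16 against GC. Of 21 histone genes 4 were kept (median 0.25 against the mean), and Hist1h3b, at 2.04 ± 0.63 against GC and -0.90 ± 0.52 against AG, was called higher against GC (3.68% of all genes). Of 17 translation factor genes 9 were kept with a median of 0.18, and Pabpc1 was the 1 called lower against the mean (4.41% of all genes). The 2 leukocyte genes kept, Lyz2 and Fcer1g, gave 0.087 ± 0.30 and -0.48 ± 0.48, and the skeletal muscle gene Ttn 0.47 ± 0.53 (SE). The microRNA host gene Vmp1, which holds miR-21, was at -1.2 ± 0.47 against AG and 0.92 ± 0.49 against GC, and the 4 microRNA host genes kept had a median of -0.04 against the mean. None of the 4 nuclear long noncoding RNAs listed, Malat1 and Neat1 among them, was kept, with 5 to 18 reads over the list per MG library, 1 to 5 per AG library and 2 to 12 per GC library.

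The count column read 0 in every library for 579 genes with an RPKM above 0, microRNA and other small RNA genes among them, and these were tested apart from the count table. Of the 99 genes with enough signal, limma on log2(RPKM + 1) called 2 against the mean (2.02%), both lower, and edgeR on whole reads recovered from RPKM called 8 (8.08%), 7 higher (7.07%) and 1 lower (1.01%). No adjusted p was under 0.05 in either, the smallest being 0.830 with limma and 0.425 with edgeR. The CPM values of these genes were scaled over the 99 genes alone, so they are not on the scale of the count table. With 1 library left out edgeR called 5 to 19 of these genes, 19 without GC replicate 1, 15 without MG replicate 3, and 5 without AG replicate 4 or MG replicate 2. At an unadjusted p under 0.05 limma found 2 genes and edgeR 8, and the 1 gene in both lists was Gm24573, annotated as an rRNA gene. It measured 14.8 to 73.8 CPM (median 62.5) in MG, 88.4 to 183 CPM (median 132) in AG, and 12.4, 57.1, 90.0, 117 and 177 CPM in GC, with a log2 fold change of -1.18 ± 0.45 in edgeR (SE, adjusted p = 0.425) and -1.16 ± 0.46 in limma (SE, adjusted p = 0.83). All 6 MG libraries lay below all 6 AG libraries and within the GC range, and edgeR called it without each library in turn. Gm24514 was the other gene called by limma, at -0.92 ± 0.41 (SE).

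Of the 16 microRNA genes tested, edgeR called Mir222 and Mir122 higher (7.07% of the 99 genes) and limma called neither. Mir222 measured 65.6 to 321 CPM (median 213) in MG, 126 to 183 CPM (median 162) in AG, and 67.1, 75, 99.2, 101 and 133 CPM in GC, from 8 to 36 recovered reads per MG library. MG replicate 6 was the lowest of all libraries and the other 5 MG libraries lay above all GC libraries. Its log2 fold change in edgeR was 0.77 ± 0.32 (SE, adjusted p = 0.425) against the mean, 0.40 ± 0.37 against AG and 1.14 ± 0.40 against GC, and it was called in 8 of the 17 fits that left out a library, 0.95 without MG replicate 6 among them. Its mature product miR-222-3p (RefSeq, GRCm38.p6, chrX:19146901-19146923, minus strand) is printed with the seed, bases 2 to 8, in capitals.
mmu-miR-222-3p: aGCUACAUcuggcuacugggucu
Mir122, the microRNA of liver cells, measured 175 to 5223 CPM (median 562) in MG, 161 to 1729 CPM (median 809) in AG, and 84.1, 268, 343, 421 and 645 CPM in GC with 1.33 ± 0.61 (SE, adjusted p = 0.508, edgeR), and MG replicate 6 was its highest library, as for Alb. Without that library the value of Mir122 was 0.14 and not called, and limma gave 0.69 ± 0.68 (SE). It was called in 9 of the 17 fits that left out a library. The mitochondrial tRNA gene mt-Tm, at 115 to 418 CPM (median 327) in MG, 34.4 to 314 CPM (median 206) in AG, and 66.6, 75.5, 136, 185 and 195 CPM in GC, gave 0.96 ± 0.42 (SE, adjusted p = 0.444, edgeR), and 1.12 without MG replicate 6, where it was also called. Over the 17 fits that left out a library mt-Tm was called in 10. In MG 5 of 6 libraries lay above all GC libraries and overlapped the upper AG libraries. Snord118 and Scarna17, a snoRNA and a small Cajal body RNA, and the small nuclear RNA genes Gm23804 and Gm25813 were the others called higher by edgeR, at 1.48 ± 0.53, 1.65 ± 0.60, 0.78 ± 0.32 and 0.98 ± 0.40 (SE). For Snord118 and Scarna17 MG replicate 6 was the highest of all libraries, at 9815 and 2279.6 CPM, where the other MG libraries reached at most 1271 and 182. Without that library neither was called, at -0.038 for Snord118 and -0.35 for Scarna17, and limma on all 17 libraries gave 0.40 ± 0.61 and 0.30 ± 0.58 (SE). Gm25813 was called in 9 of the 17 fits that left out a library, at 1.2 without MG replicate 6 but not without MG replicate 1, at 0.57, and Gm23804 in 11 of 17, not without MG replicate 6, at 0.62, or AG replicate 5, at 0.51. Limma gave 0.55 ± 0.60 for Gm25813 and 0.69 ± 0.43 for Gm23804 (SE).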

How the data were processed

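Small RNA libraries were prepared from plasma cfRNA of 17 mice, 1 library per mouse, and the authors mapped the reads to mm10 in CLC Genomics Workbench. The deposited tables give per gene an unnormalized read count, which is the value used here, and RPKM and TPM values computed by the authors' tool, of which RPKM was used for alternatives and for the 579 genes outside the count column and TPM was not used. Strand setting, trimming and the treatment of reads with several matches are not given in the sources used here. Read counts were fitted with edgeR 4.0.16 under R 4.3.3 (filterByExpr by group, TMM, glmQLFit and glmQLFTest) over all 17 libraries with no covariate, and contrasts of MG with the mean of AG and GC, with AG and with GC were taken from that fit. A gene was called at an unadjusted p under 0.05 and a fold over 1.5, the criterion the study used, and Benjamini-Hochberg adjustment ran over the 272 genes kept. DESeq2 1.42.0, limma 3.58.1 on log2(RPKM + 1) (pseudocount 1, so folds of low genes are understated), other scalings, filters, covariates and leaving out each library served as alternatives. The share of the counts on a gene group was tested by exact two-sided permutation over libraries (scipy 1.17.1). For genes outside the count column, whole reads were recovered from RPKM and GENCODE M21 lengths, and 98.1% of the values came within 0.05 reads of a whole number over 550 genes with a length. Gene positions and sequences are from GENCODE M21 and RefSeq on GRCm38. The fitting procedure was run on simulated data, and the outcome is not given here. Library totals between 84657 and 277682 counts limit precision for genes of few reads, and the common dispersion was 0.329. No pair of libraries of a group differed by as little as sampling noise. The labels give no batch or date. The members and gene lists were chosen with earlier results of these data known, and the genes named are those called against both 1-G groups, the 10 with the smallest p in each direction, the mitochondrial mRNAs, the 4 most abundant genes, and called or highly counted members of each list.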

Additional observations from a re-analysis of the deposited data

Results flagged for a closer look

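In 14 of 63 groups of libraries examined, 1 library stood farther from the others than Dixon's critical value allows at the 95% level, where chance gives about 1 in 20 groups, or 3.15 of 63. These checks used TMM-normalized CPM on the linear scale. That chance rate holds for normally distributed values, and in all 14 groups the flagged library was the highest. Setting 14 beside 3.15 is therefore no test of an excess of outliers. MG replicate 6 held 586 CPM of mt-Nd1 (the other MG libraries 105 to 231), 88849 CPM of Gas5 (6254 to 12050.1) and 2359 CPM of Alb (0 to 211). AG replicate 6 held 1514 CPM of Alb (the other AG libraries 0 to 46.9), 313 CPM of Col1a2 (23.1 to 82.1) and 104 CPM of Gpx3 (0 to 26.2). GC replicate 4 held 251 CPM of mt-Nd1 (the other GC libraries 74.5 to 113) and 29706 CPM of Gas5 (3912 to 9964). MG replicate 1 held 223 CPM of Gpx3 (16 to 89.3) and 67.5 CPM of Gm20186 (0 to 24.1), and MG replicate 4 held 617 CPM of Col1a2 (33.6 to 177). AG replicate 5 held 141 CPM of mt-Nd4l (18.1 to 61.2) and 281 CPM of Ube2o (81.3 to 146). GC replicate 1 held 3240.3 CPM of Hbb-bt (934 to 1575).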

How the results depend on the processing

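Against the mean of AG and GC, 19 genes were called, 7 higher and 12 lower, and 3 were called against both 1-G groups. Among all alternatives run on the fold changes of single genes, 2175 values kept their direction and side of the threshold, 294 kept the direction and lost the threshold, 58 passed it newly and 41 reversed. Keeping all genes with at least 5 reads gave 940 calls, 734 higher and 206 lower, and 239 against both groups, over 6270 genes. With limma on log2(RPKM + 1) the numbers were 4, 2, 2 and 0, with library sizes implied by RPKM 8 calls, 3 of them lower and 1 against both, and without composition scaling 58 calls, 57 higher and 1 lower. With the share of the 4 most abundant genes as a covariate 13 genes were called higher and 6 lower. The genes called against both groups were Gas5, Snhg3 and mt-Nd1 with this covariate, Rps3a1, Col1a2, Ahnak and mt-Nd1 without composition scaling, and Alb with library sizes implied by RPKM. At an adjusted p under 0.05 (edgeR's quasi-likelihood test) there were 0 genes against the mean and 0 against both, beside 19 at an unadjusted p under 0.05, whereas 17 genes reached it against the mean with the lower filter, 1 without composition scaling and 1 without AG replicate 6. Leaving out 1 library at a time gave 13 to 30 calls, 6 to 21 higher, 5 to 16 lower and 0 to 5 against both. The most calls came without GC replicate 4, where more genes also passed the filter, and higher calls numbered 14 without MG replicate 3, lower calls 6 without MG replicate 2 and 5 without MG replicate 5. Genes against both groups numbered 0 without MG replicate 6, 5 without AG replicate 6, and 1 without GC replicate 1, 2 or 5. The log2 difference in the mitochondrial share was 0.33 over counts outside the 4 most abundant genes (exact permutation p = 0.229) and 0.79 to 1.23 with 1 library left out, and that in the summed RPKM, which is no share, was 0.51 (exact permutation p = 0.389). For the 4 most abundant genes the difference in log2 odds of the share was -0.92 to -0.71 with 1 library left out. On another scale, the log2 difference in their summed level was -0.65 for TMM-normalized CPM (exact permutation p = 0.11) and -0.60 for RPKM (exact permutation p = 0.0731). Single genes reversed mostly against GC. Without MG replicate 6 and AG replicate 6 together, an alternative chosen after seeing the data, Gas5 was at -0.17 against the mean and -0.51 against GC, and against GC mt-Nd2 at -0.38 and mt-Atp8 at -0.094. Against GC, limma gave -0.074 for Gas5, -0.27 for mt-Nd2, -0.039 for mt-Co1, -0.22 for mt-Atp8, -0.16 for mt-Atp6, -0.13 for mt-Nd3 and -0.38 for mt-Nd6, library sizes implied by RPKM gave -0.45 for mt-Atp8 and -0.025 for mt-Atp6, and the lower filter gave -0.054 for mt-Atp8. The covariate turned Rnf10 to 0.022 and mt-Nd6 to -0.069 against GC, Slc4a1 to 0.018, Slc25a37 to 0.41, mt-Nd3 to -0.17 and mt-Nd6 to -0.54 against AG, and Slc25a37 to 0.18, mt-Nd3 to -0.056 and mt-Nd6 to -0.30 against the mean. With 1 library left out, values against the mean spanned -0.20 to 1.55 for Gas5, -0.0046 to 0.88 for mt-Nd2 and -0.025 to 0.73 for mt-Nd6. Against AG they spanned -1.42 to 4.26 for Alb and -0.026 to 1.84 for Col1a2, and against GC -0.54 to 1.48 for Gas5, -0.24 to 0.052 for Rnf10, -0.41 to 0.61 for mt-Nd2, -0.0996 to 0.45 for mt-Atp8 and -0.15 to 0.62 for mt-Nd6. On recovered reads, against the mean and in an alternative chosen after seeing the data, they spanned -0.038 to 1.72 for Snord118 and -0.35 to 1.89 for Scarna17, both lowest without MG replicate 6. The cause of these reversals was not tested.

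The replicate numbers of the groups mark no shared animal, and the main fit did not pair libraries by them. Of 16 pairs with the same number, 7 had a correlation of deviations over 0.1. The median was 0.029 for pairs with the same number and -0.017 for other pairs. The pairs of replicate 1 were positive, at 0.464 (AG and MG), 0.484 (AG and GC) and 0.593 (MG and GC). The lowest, -0.472, was that of AG and GC replicate 5. Whether equal numbers share a feature of handling was not tested. With a replicate block 15 genes were called, 4 higher and 11 lower, 12 of them among the 19, and 3 against both groups, Alb, Gm20186 and Hbb-bt. Under that block Gas5 was at -0.12, mt-Nd2 at -0.41 and mt-Nd6 at -0.077 against GC.

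Low read numbers limit the precision for single genes. mt-Nd4l rested on 2 to 27 reads per library and Gpx3 on 0 to 43, and 1 group held 5 libraries.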
